A study of Mus musculus x Rattus norvegicus with 2 samples.

Results

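The replication-dependent histone genes make the bulk of the histones that package new DNA during S phase. They were taken here as every mouse feature whose symbol has the form of a clustered H1, H2A, H2B, H3 or H4 gene, which gave 67 members among 55403 mouse features and 80802 features in all. Of the members, 6 were linker H1 genes, 20 were H2A, 17 were H2B, 12 were H3 and 12 were H4 genes, with 57 on chromosome 13 and 10 on chromosome 3 of mm10. Among those counted as H2A, 3 are annotated as pseudogenes: H2ac14, H2ac5-ps and Hist1h2al. They were followed in lung cells of mouse-rat chimeric embryos at E20.5 of gestation, with strains C57BL/6 and SD, as 1 droplet 3' v3 library per group. The mutant library came from a mouse lung that formed in an Nkx2-1-/- rat, and the control library from a chimeric mouse-rat lung in a wild-type rat. The labels do not say whether several embryos were pooled, and with 1 library per group no difference below has a replicate check and no p-value was computed.

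Rat Nkx2-1, the gene the mutant host lacks, had 0 UMIs in the 79 rat cells of the mutant library, against 3993 UMIs (338 CPM of rat UMIs) in the 725 rat cells of the control library. Whether the rat cells of both libraries are the same cell types was not tested, so this checks the labels only in part. The libraries held 10918 mutant and 11129 control barcodes with 103627303 and 123047433 unique molecular identifiers (UMIs), and 8498 mutant and 7260 control mouse cells remained after filters. The control matrix came from an earlier version of the counting software than the mutant matrix, and UMIs of genes with at most 10 kb of intron were 50.2% of mouse UMIs in mutant mesenchymal cells and 59.7% in control mesenchymal cells. The libraries shared 47 barcode sequences. Most clusters were mainly of 1 library, so that a class was held by different clusters in each, and values within clusters shared by both libraries are given below.

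Messenger RNAs of replication-dependent histones are unusual in that most end in a conserved stem-loop and carry no poly(A) tail. The stem-loop is bound by SLBP, the protein that carries these RNAs through processing, translation and decay, so that their level follows DNA synthesis. A 3' library primed on poly(A) therefore catches these RNAs only in part, through tailed forms or internal runs of A. The Mcm2 to Mcm7 genes code for the helicase that opens replication origins, and Top2a codes for the topoisomerase that untangles DNA from S phase to mitosis.

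The stem-loop was found by letters in the annotated transcripts of 41 members (61.2%), as GGNNCT, a loop of TTTN and AGNNCC read in 1 run on the transcript's strand, with the N letters of both arms able to pair, and in 9 of 55383 other genes (0.0163%). A run of letters is no measure of processing, and no match says only that these letters are not in the annotated transcript. The 6 sequences below are shown because they are the whole set of forms among the members; capitals mark the letters of the stem and lower case the loop, read from GENCODE transcripts of mm10.
Hist1h2ap: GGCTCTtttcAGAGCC
H4c4: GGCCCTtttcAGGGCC
H3c3: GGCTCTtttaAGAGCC
H4c9: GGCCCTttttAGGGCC
H4c2: GGTCCTtttcAGGACC
H2ac20: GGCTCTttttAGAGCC
The form of Hist1h2ap was carried by 24 members, those of H4c4 and H3c3 by 6 members each, those of H4c9 and H4c2 by 2 each, and that of H2ac20 by itself. Annotated transcripts of 9 members ended within 30 bases after the stem-loop, and those of 20 members ran on for 60 or more bases. Hist1h2ap ended 3 bases after it, H2ac8 151 bases, H4c4 770 bases, H1f2 840 bases and H1f4 1153 bases after it, while no match was found in H1f5, H1f1 or H2bc4.

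Which gene a histone read came from is uncertain for several members, since the family is built of near copies. At least 50% of the 90-base windows were shared with other genes in 28 members. Hist1h2ap, an H2A gene at chr13:21833026-21833507 on the minus strand with a single exon, shared 92.4% of its windows with Hist1h2ao and every window of its last 300 bases with some other gene, and it lies opposite the gene model Gm44466. H1f4, a linker gene at chr13:23620629-23622558 on the minus strand, overlaps the gene model of H2bc6 on the same strand and shared every window of its last 300 bases with some other gene. H2ac8, at chr13:23570517-23571220, shared 31.9% and lies opposite Gm44394, and Hist1h2an shared 83.9%. H1f5, the gene of linker histone H1.5 at chr13:21779883-21780625, shared none. The 2 libraries were counted on the same features, and values of Hist1h2ap, Hist1h2an and H1f4 are uncertain as to the gene and are those of the feature as deposited.

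Over all barcodes the members had 93695 UMIs in the mutant library and 374548 in the control library. UMIs were seen for 65 of the 67 members, and 14 members had under 100 in both libraries. In raw UMIs, not scaled to the library totals, 8 had more in the mutant library. The share of all genes with more was not counted, so no result is read from this count. Hist1h2ap, the most abundant member of the control library, had 1350 UMIs in the mutant library and 132264 in the control library. H1f4, the most abundant member of the mutant library, had 28401 and 32723 UMIs, and H1f5 had 12635 in the mutant and 63571 in the control library. H4c4, an H4 gene, had 10129 UMIs in the mutant library and 7992 in the control library. The library gap was thus of very different size from one member to the next.

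By lineage, the sum of all members was lower in the mutant library in epithelial, mesenchymal and immune cells by large amounts and by much less in endothelial cells. Sums are given in CPM, member UMIs scaled to the mouse UMIs of the class, with an exact Poisson interval at 95% that covers counting error only, and each log2 difference is that of the mutant over the control value with 10 CPM added to each. The epithelial sum was 528 CPM (517 to 539) in 1110 mutant cells and 4407 CPM (4385 to 4429.7) in 1199 control cells, a log2 difference of -3.04. In mesenchymal cells it was 737 CPM in 4263 mutant cells and 3516 CPM in 4150 control cells (-2.24), and in immune cells 1039 CPM in 89 mutant and 2457 CPM in 173 control cells (-1.23). Of the mutant immune cells, 67 lay in a cluster led by S100a9 and S100a8, at 513 CPM. The other 22 lay in one led by Igkc and Cd79a, at 3954 CPM, which held only 3 control cells. In the S100a9 cluster the control library had 2479 CPM in 170 cells (-2.25). Endothelial cells, 1943 mutant and 1620 control, had 2356 CPM (2332 to 2379.8) and 3298 CPM (3269 to 3326), a log2 difference of -0.48. The endothelial sign turned with the choices made: it was 0.04 without Hist1h2ap and 0.26 per UMI of ribosomal protein genes, a scaling that moved the median of all endothelial genes to 0.48, against -0.09 in CPM.

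A further 1025 mutant and 2 control cells formed a cluster led by Ager, Lmo7, Rtkn2 and Hopx, which was left unnamed because Msln, a marker on the mesothelial list, stood among its top genes. Its histone sum was 393 CPM in the mutant library, below those of the mutant epithelial, endothelial and mesenchymal cells, and no comparison was made. With it, the epithelial log2 difference was -3.19.

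By family, the H2A sum had the largest log2 difference of the 5 in every class, with much of it from Hist1h2ap, whose gene of origin is uncertain. Without Hist1h2ap the H2A difference was -3.72 in epithelial, -0.98 in endothelial, -3.02 in mesenchymal and -1.51 in immune cells. H2A genes made up 7.94% of member UMIs in mutant epithelial cells and 57.1% in control epithelial cells, and 14.8% in mutant against 49.9% in control endothelial cells. The linker H1 genes made up 56.2% of member UMIs in mutant and 25.8% in control epithelial cells. In endothelial cells the H2A sum was 349.5 CPM in the mutant and 1646 CPM in the control library (-2.20), while the sums of the other families were higher in the mutant library: H1 1217 and 1037 CPM (0.23), H2B 253 and 209 CPM (0.26), H3 201 and 181 CPM (0.14), and H4 336 and 225 CPM (0.56). The H4 sum rested on H4c4, since without it H4 had 87.2 CPM in the mutant and 139 CPM in the control library (-0.62). Single endothelial members lay on both sides within each family. Of 9 measured H2A members 4 were higher and 3 of them by 1 or more, where 10.6% of all measured genes were. Lower were 3 of 5 H4 members (median -0.64) and 4 of 7 H3 members (median -0.02), beside a median of -0.09 over all measured genes. The share of all genes lower by any amount was not counted. In epithelial cells all 5 families were lower in the mutant library, with log2 differences of -5.61 for H2A, -2.34 for H3, -2.22 for H2B, -1.90 for H1 and -1.16 for H4. The order H2A lowest, H4 least low was also that of mesenchymal cells, at -4.41 for H2A and -1.10 for H4.

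Members reaching 10 CPM in either library were called measured, and a member was counted as lower or higher when its log2 difference was at least 1 in size. In epithelial cells 20 of 28 measured members were lower and 0 higher, where 11.9% of all measured genes were lower and 12.7% higher. In mesenchymal cells 19 of 28 were lower and 0 higher, against 5.88% and 10.8% of all genes. In endothelial cells 4 of 34 were lower and 5 higher, against 3.92% and 10.6%, and in immune cells 5 of 25 were lower and 0 higher, against 4.95% and 15.9%. With 1 CPM added in place of 10 the lower members were 10 of 34 in endothelial and 11 of 25 in immune cells, where 8.63% and 9.88% of all genes were lower, and per UMI of ribosomal protein genes they were 2 of 33 and 3 of 25, where 0.464% and 1.47% were. Over all mouse cells 18 of 29 were lower and 0 higher, against 6.07% and 11.9%. The median of the measured members was -1.65 in epithelial, 0.07 in endothelial, -1.33 in mesenchymal and -0.47 in immune cells, beside -0.20, -0.09, -0.10 and 0.06 over all measured genes. At the limit itself, H2bc6 had 5.80 CPM in mutant and 10.7 CPM in control epithelial cells and was measured, while H3c13, at 0.122 and 9.84 CPM, was not.

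**Figure D1:**
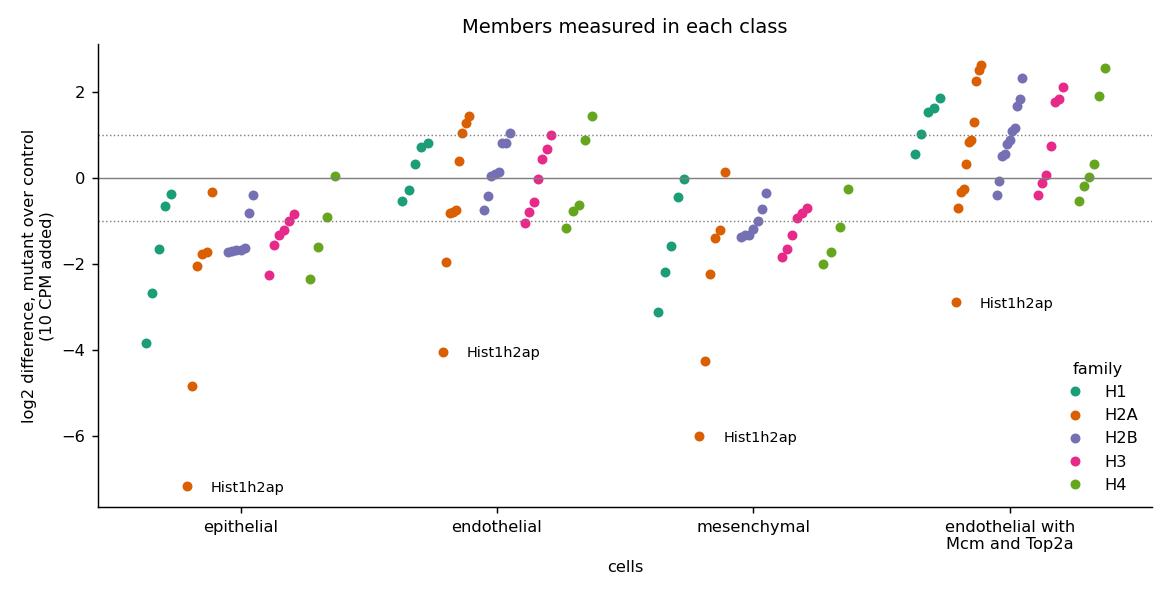
Log2 difference, mutant over control with 10 CPM added, of each measured member by class, coloured by family; dotted lines mark 1 and -1. Hist1h2ap lies lowest in each column, from -7.17 in epithelial cells to -2.89 in endothelial cells with Mcm and Top2a UMIs, where most other members lie above 0.

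In 1 of the 3 large classes or more, 7 members reached 100 CPM. Hist1h2ap had 3.11 CPM (2.32 to 4.09) in mutant and 1883 CPM (1868 to 1897) in control epithelial cells, a log2 difference of -7.17. In endothelial cells it had 54.3 and 1053 CPM (-4.05), in mesenchymal cells 6.17 and 1029 CPM (-6.01), and in immune cells 7.07 and 660.2 CPM (-5.29), mutant before control. The 8 mutant immune UMIs of Hist1h2ap all lay in the cluster led by Igkc and Cd79a. The control library was high and the mutant library low in every class, and the mutant endothelial value stood above those of the other mutant classes.

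H2ac8, another H2A gene, followed the same order with smaller gaps. It had 7.08 CPM in mutant and 479.6 CPM in control epithelial cells (-4.84), 113 and 462 CPM in endothelial cells (-1.95), and 11.4 and 399 CPM in mesenchymal cells (-4.25). H1f5, a linker gene, had 34.7 CPM in mutant and 627 CPM in control epithelial cells (-3.83) and 71.0 and 696 CPM in mesenchymal cells (-3.12). In endothelial cells H1f5 had 464 CPM in the mutant and 564 CPM in the control library (-0.28), and 0.46 per UMI of ribosomal protein genes, beside the 0.48 of the median gene under that scaling. The same scaling put the median gene at 0.34 in epithelial and 0.31 in mesenchymal cells, and at 0.73 and 0.52 in epithelial and endothelial cells with Mcm and Top2a UMIs, and the values per ribosomal protein UMI that follow are to be read against these.

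The other abundant members had log2 differences between 0.04 and 1.44 in endothelial cells, and H2bc4 alone of them was lower by 1 or more in epithelial and mesenchymal cells. H1f4, a linker gene found across many tissues, had 178 CPM in mutant and 286 CPM in control epithelial cells (-0.65), 507 and 286 CPM in endothelial cells (0.81), and 280.4 and 387 CPM in mesenchymal cells (-0.45, or 0.05 per UMI of ribosomal protein genes). H1f2, a further linker gene at chr13:23738808-23740367, had 66.6 and 89.0 CPM in mutant and control epithelial cells (-0.37), 137 and 79.0 CPM in endothelial cells (0.72), and 90.9 and 92.1 CPM in mesenchymal cells (-0.02); its epithelial and mesenchymal signs turned to 0.22 and 0.45 per UMI of ribosomal protein genes. H4c4, at chr13:23581598-23582735, had 66.4 and 63.7 CPM in mutant and control epithelial cells (0.05, or -0.07 with the unnamed Ager cluster added). It had 248 CPM in mutant and 85.1 CPM in control endothelial cells (1.44), and 78.6 and 95.2 CPM in mesenchymal cells (-0.25, or 0.22 per UMI of ribosomal protein genes). H2bc4, an H2B gene at chr13:23684199-23692908 with an intron in the annotation, had 46.3 and 176 CPM in mutant and control epithelial cells (-1.72), 93.2 and 90.5 CPM in endothelial cells (0.04), and 42.1 and 95.1 CPM in mesenchymal cells (-1.01). Just under the limit of 100 CPM were H1f3, at 81.6 CPM in mutant and 63.2 CPM in control endothelial cells, and H3c3, at 81.2 and 57.2 CPM.

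**Figure D2:**
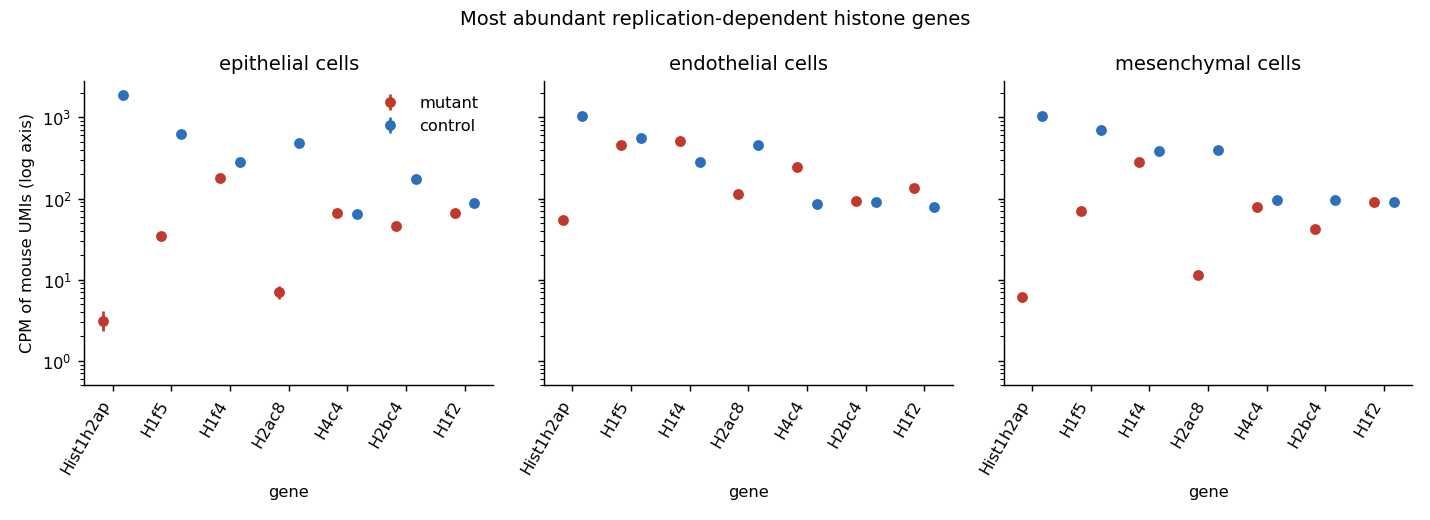
CPM of the 7 most abundant members in epithelial, endothelial and mesenchymal cells, mutant left of control for each gene, on a log axis with Poisson intervals. Hist1h2ap and H2ac8 are lower in the mutant library in all 3 classes, while H4c4 in endothelial cells is higher, at 248 against 85.1 CPM.

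A ratio of 2 members within a library needs no scaling to other genes. Hist1h2ap had 0.0896 UMIs per H1f5 UMI in mutant epithelial cells (interval 0.0659 to 0.119) and 3.0 in control epithelial cells (2.96 to 3.05). The ratios were 0.117 and 1.87 in mutant and control endothelial cells, 0.0869 and 1.48 in mesenchymal cells, and 0.0559 and 1.24 in immune cells. The mutant immune ratio rested on 8 Hist1h2ap UMIs, all in the cluster led by Igkc and Cd79a. In the mutant library the intervals overlapped between all classes except endothelial (0.109 to 0.126) and mesenchymal cells (0.0767 to 0.0982), whereas in the control library the intervals of all 4 classes lay apart. H4c4 went the other way, with 1.91 UMIs per H1f5 UMI in mutant and 0.102 in control epithelial cells, 0.536 and 0.151 in endothelial cells, and 1.11 and 0.137 in mesenchymal cells. The Hist1h2ap ratio was nearly the same in the endothelial cells with Mcm and Top2a UMIs, at 0.118 in the mutant and 1.89 in the control library.

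**Figure D3:**
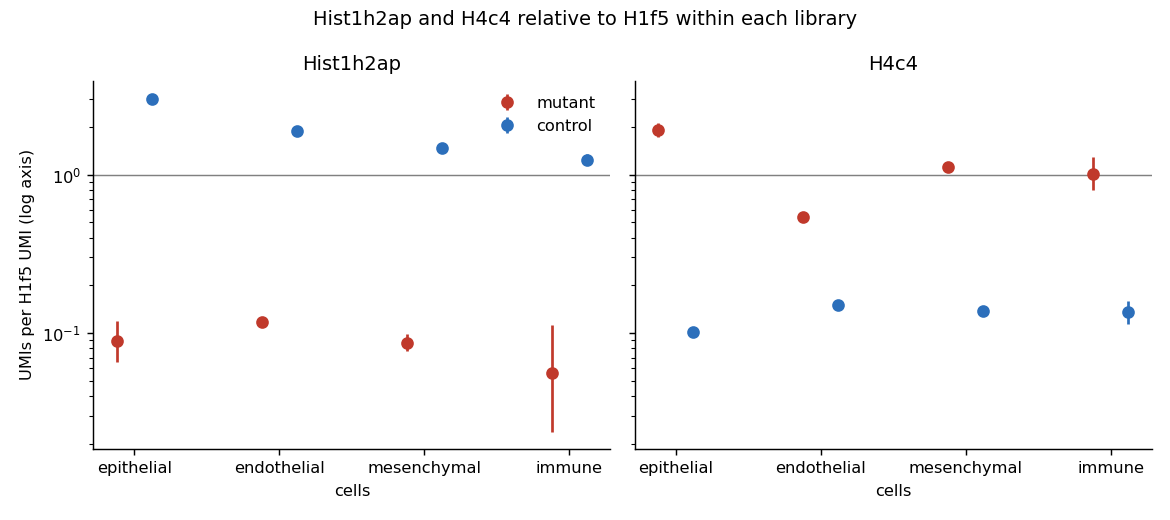
UMIs of Hist1h2ap (left) and H4c4 (right) per UMI of H1f5 in 4 classes, mutant left of control, on a log axis with exact binomial intervals. Hist1h2ap is below 1 in all mutant classes and above 1 in all control classes, and H4c4 is higher in the mutant library in all 4.

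Histone RNA was set against Top2a and Mcm detection cell by cell. Cells with at least 1 UMI of both were 4.32% of mutant and 46.7% of control epithelial cells, 23.2% and 39.1% of endothelial cells, and 4.32% and 31.3% of mesenchymal cells. They held 18.9% of epithelial member UMIs in the mutant and 95.6% in the control library, 80.4% and 88.1% in endothelial cells, and 31.1% and 88.5% in mesenchymal cells. In the mutant epithelium and mesenchyme most member UMIs thus lay in cells with neither or only one of the markers, at 442 CPM in mutant epithelial cells with neither.

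Among endothelial cells with both, the order of the libraries was opposite to that of the whole class. The sum of members was 6059 CPM (5991 to 6128) in 451 mutant cells and 3861 CPM (3825 to 3897) in 634 control cells, a log2 difference of 0.65, and 5895 and 2577 CPM without Hist1h2ap (1.19). It stayed positive with at least 2 UMIs of each gene set (0.94), per UMI of ribosomal protein genes (1.41), and per UMI of genes with at most 10 kb of intron (0.87). Of 40 measured members 18 were higher by at least 1, where 9.72% of all genes were, and 1 was lower, where 2.77% were. The 1 lower member was Hist1h2ap, at 164 CPM in mutant and 1284 CPM in control cells (-2.89). The median of the measured members was 0.85, beside -0.08 over all genes.

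The 4 families other than H2A were higher in these mutant endothelial cells. The H1 sum was 3147 CPM in mutant and 1204 CPM in control cells (1.38), H3 563 and 204 CPM (1.42), H2B 518 and 223 CPM (1.18), and H4 824 and 253 CPM (1.67, or 0.36 without H4c4). The H2A sum was 1009 and 1978 CPM (-0.96), and without Hist1h2ap 845 and 694 CPM (0.28). Single members ranged widely within a family, and among H2A genes the log2 differences were 2.51 for H2ac20, 2.62 for Hist1h2an and -0.70 for H2ac8. H1f5 had 1387 CPM in mutant and 678 CPM in control cells (1.02), H1f4 1168 and 315 CPM (1.86), and H4c4 621 and 97.1 CPM (2.56). H2ac8 turned to 0.04 per UMI of ribosomal protein genes, and H2bc4, at 83.1 and 88.2 CPM (-0.08), turned to 0.60 under that scaling and to 0.13 with the short-intron denominator.

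In the epithelium and mesenchyme the sum stayed lower in the mutant library in cells with both. It was 1305 CPM in 48 mutant and 4964 CPM in 560 control epithelial cells (-1.92), and 3534 CPM in 184 mutant and 7165 CPM in 1297 control mesenchymal cells (-1.02). Of 34 measured epithelial members 16 were lower by at least 1 and 0 higher, against 7.63% and 18.9% of all genes, and of 37 mesenchymal members 13 were lower and 2 higher, against 2.87% and 11.1%. The 2 higher mesenchymal members were H4c4, at 379 CPM in mutant and 183 CPM in control cells (1.01), and Hist1h2an, at 33.7 and 6.51 CPM (1.40). Hist1h2ap was lower in both classes, at 27.1 and 2174 CPM in epithelial and 83.3 and 2223 CPM in mesenchymal cells, mutant before control. In these epithelial cells H1f4 (-0.30) and H2bc4 (-0.24) were near 0 and turned to 0.56 and 0.60 per UMI of ribosomal protein genes, and H2bc4 to 0.03 with at least 2 UMIs of each gene set.

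Depth differed between the cells compared, so each cell was also thinned to 2000 UMIs and shallower cells were left out. That left out 223 mutant and 193 control epithelial cells, 136 mutant and 521 control endothelial cells, and 365 mutant and 386 control mesenchymal cells. In endothelial cells with both markers after thinning the sum was 8505 CPM in 189 mutant and 6198 CPM in 270 control cells (0.46), and in those with neither it was 623 CPM in the mutant and 1337 CPM in the control library. In mesenchymal cells it was 6598 CPM in 46 mutant and 9802 CPM in 514 control cells with both (-0.57), and 574 and 734 CPM in those with neither. In epithelial cells only 6 mutant cells had both, at 6500.0 CPM (5138 to 8112), against 9424 CPM in 144 control cells (-0.54). In both libraries cells with both markers had a higher sum than cells with neither in all 3 classes. Mouse members in rat cells, taken here as stray, had 243 CPM of mouse UMIs (136 to 401) in the mutant and 1141 CPM (1058 to 1228) in the control library. Rat histone reads counted on mouse features were not told apart from stray UMIs. These values are the make-up of stray mouse UMIs, not the stray part of a whole cell. Scaled to the rat UMIs of the same rat cells, the members were at 18.1 CPM in the mutant and 59.3 CPM in the control library. The stray part of the sums in cells with neither was not tested, so no difference between the libraries is read in those cells.

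**Figure D4:**
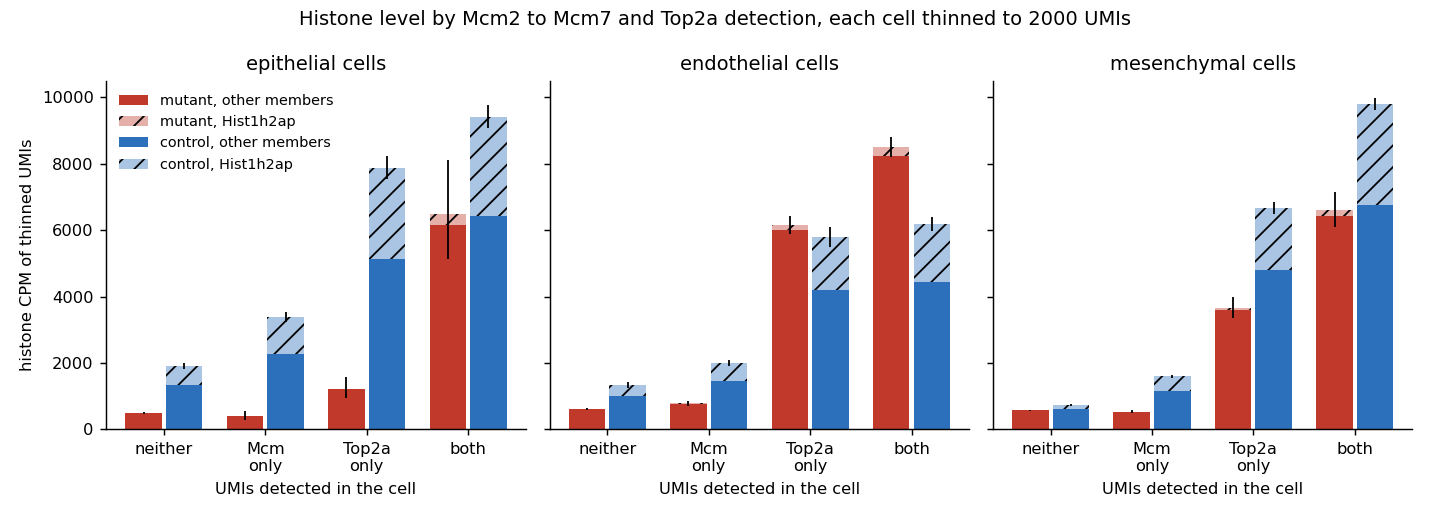
Histone CPM by detection of Mcm2 to Mcm7 and Top2a after thinning each cell to 2000 UMIs, mutant left of control; solid bars are all members but Hist1h2ap, hatched bars Hist1h2ap, and lines the Poisson interval of the sum. Hist1h2ap is a visible part of the control bars and a thin one at most of the mutant bars. The mutant bar exceeds the control bar in endothelial cells with both, at 8505 against 6198 CPM. With Top2a only they stand at 6158 against 5802 CPM with overlapping intervals, and without thinning the values were 1950.3 against 5510.4 CPM.

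Beside the histones, the other cycle genes of these endothelial cells did not all lie on 1 side. In cells with both, 6 of 6 Mcm genes were lower in the mutant library and 0 by 1 or more, with sums of 512 CPM in mutant and 768 CPM in control cells. Of 18 G2 and M phase genes only 3 were lower, 2 were higher by 1 or more, and the sums were 5705 and 4299 CPM. Of 18 other S phase genes 12 were lower, 0 of them by 1 or more, and 1 was higher by 1 or more, with sums of 1731 and 1824 CPM. The Mcm genes and Top2a, which is on the G2 and M list, also chose these cells. Their levels there depend on the detection rule and on depth, at medians of 10510.0 mutant and 8345 control UMIs. Differences in the selecting genes are thus no independent measure of cycle state. The part of all these differences in the histone values was not tested.

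Genes that process histone mRNA and chaperone histones had smaller median differences than the members in epithelium and mesenchyme. Of 11 measured processing genes 3 were lower by 1 or more in the epithelium, 0 in the endothelium and 0 in the mesenchyme, with medians of -0.85, -0.50 and -0.63. Slbp itself had 36.7 CPM in mutant and 121 CPM in control epithelial cells (-1.48), 66.5 and 129.9 CPM in endothelial cells (-0.87), and 50.9 and 104 CPM in mesenchymal cells (-0.90). Of 14 chaperone genes 10, 3 and 6 were lower by 1 or more in the same order of classes, with medians of -1.15, -0.64 and -0.89. Of 11 histone genes listed as replication-independent, 8, 3 and 7 were lower by 1 or more, and 1 was higher in epithelial cells. Of all measured genes 11.9%, 3.92% and 5.88% were lower by 1 or more in these classes, and 12.7% were higher in epithelial cells. The medians of the 11 genes were -1.40, -0.93 and -1.22. Their sum was 4668 CPM in mutant and 9957 CPM in control epithelial cells, and 4239.7 and 7437 CPM in endothelial cells. The 6 Mcm genes were all lower by 1 or more in the 3 large classes, with medians of -2.44, -1.23 and -1.79. Of 18 G2 and M phase genes 18, 4 and 18 were lower by 1 or more, and of 18 other S phase genes 17, 9 and 16.

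Share of cells with a UMI gave the same order for Hist1h2ap. Without thinning, 2.25% (Clopper-Pearson interval 1.46 to 3.31) of mutant and 70.7% (68.1 to 73.3) of control epithelial cells had one, 12.6% and 56.7% of endothelial cells, and 1.99% and 48.4% of mesenchymal cells. Thinned to 2000 UMIs the shares were 0.676% and 51.6%, 5.92% and 45.3%, and 0.616% and 28.0%, mutant before control. For any member the thinned shares were 53.8% and 83.9% in epithelial, 66% and 78.4% in endothelial, and 61.2% and 67.2% in mesenchymal cells.

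Mouse Hist1h2ap UMIs in rat cells were taken as stray, though rat reads counted on the mouse feature were not told apart from them. In the mutant library 0 of 79 rat cells had a mouse Hist1h2ap UMI, which allows a share of up to 3.80%, at a median of 746 mouse UMIs and 10490.0 UMIs in all. In the control library 169 of 725 rat cells (23.3%, 20.3 to 26.6) had one, at a median of 619 mouse UMIs and 9843 UMIs in all, or 339 CPM of the mouse UMIs of those cells. Control epithelial cells with neither Mcm nor Top2a had a Hist1h2ap UMI in 43.1% of cells, control endothelial cells in 30.7% and control mesenchymal cells in 29.1%, at 313, 355 and 95 CPM and medians of 2902, 1618 and 5861 UMIs. The shares stood above that of the rat cells at larger mouse depth. The 339 CPM (294 to 388) is the make-up of stray mouse UMIs, not the stray part of a whole cell. Scaled to the rat UMIs of the same control rat cells, mouse Hist1h2ap was at 17.6 CPM (15.3 to 20.2). The 339 CPM is thus no limit for mouse cells, whose UMIs are scaled to all their mouse UMIs. How much of the Hist1h2ap in control cells with neither marker is stray was not tested. Control cells with both markers had 2174, 1284 and 2223 CPM. The thinned control share of mesenchymal cells, 28.0%, cannot be set against the rat share, since thinning also removes stray UMIs and the rat barcodes were not thinned.

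Within clusters that held at least 20 cells of each library, Hist1h2ap was lower in the mutant library in 14 of 14, with log2 differences of -7.30 to -2.85. The lowest was in a cluster with 0 mutant UMIs of Hist1h2ap (0 to 61.9 CPM), so its size depends on the 10 CPM added. Depth was not matched within clusters. Mutant and control medians were 3441 and 9348 UMIs in a cluster led by G0s2 and Adh1, and 2510.0 and 7438 in one led by Mest and Cdh5. They were 21638 and 7958 in the one led by Scgb3a2. The sum of members was lower in 12 of the 14 and by 1 or more in 8. The exceptions were a shallow endothelial cluster led by Egfl7 and Mest, with 5553 CPM in 88 mutant and 5327 CPM in 731 control cells (0.06), and a fibroblast-gene cluster led by Ptn and Dlk1, with 3093 CPM in 36 mutant and 1952 CPM in 370 control cells (0.66). In the endothelial cluster led by Mest and Cdh5 the sums were 2822 CPM in 94 mutant and 3123 CPM in 833 control cells (-0.15), and Hist1h2ap had 78.1 and 1034 CPM. In the secretory and ciliated gene cluster led by Scgb3a2 and Scgb1a1 the sums were 726 CPM in 147 mutant and 1947 CPM in 176 control cells (-1.41). The epithelial cluster led by Epcam, Wfdc2 and Cldn18 had 2511 CPM in 20 mutant and 4782 CPM in 723 control cells (-0.93). A shallow epithelial cluster led by Epcam and H1f5 had 705 CPM in 27 mutant and 6195 CPM in 295 control cells (-3.12). The largest endothelial cluster of the mutant library, led by Ptprm and Scn7a, had 2764 CPM in 1255 mutant cells, and Top2a UMIs in 33.5% of them.

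Low-depth barcodes were compared with the make-up of mouse UMIs in rat cells, which were taken as stray with the limit given above. Members had 243 CPM of these UMIs (136 to 401) in the mutant and 1141 CPM (1058 to 1228) in the control library. The comparison holds only for barcodes whose mouse UMIs are mostly stray, which was not tested. Among mouse barcodes with under 500 genes, the sum was 402 CPM (377 to 428) in 1599 mutant and 925 CPM (882 to 969) in 1173 control barcodes, a log2 difference of -1.18. Hist1h2ap had 5.42 CPM in the mutant and 214 CPM in the control barcodes, and H1f4 had 118 and 93.1 CPM. The control sum and the control value of Hist1h2ap lay below the stray levels of 1141 and 339 CPM, so no order of the libraries is read from all barcodes under 500 genes. Mitochondrial UMIs were 32.3% of the mutant and 7.76% of the control UMIs there, and among barcodes with at most 20% mitochondrial UMIs the sums were 507 and 909 CPM (-0.83). By the marker gate, barcodes under 500 genes had 424 and 1865 CPM in epithelial, 1272 and 4396 CPM in endothelial, and 683 and 2083 CPM in mesenchymal ones, mutant before control. The control values of these gated barcodes lay above the stray interval, as did the mutant endothelial and mesenchymal values, while the interval of the 70 mutant epithelial barcodes (277 to 621) overlapped it. Top2a was seen in 3.38% of the mutant and 10.1% of the control barcodes under 500 genes, and an Mcm gene in 3.94% and 15.3%.

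Among cells of a class the level did not follow depth in 1 direction. Mutant epithelial cells had 734 CPM at 500 to 2000 UMIs, 1123 CPM at 5000 to 10000 and 518 CPM at 20000 or more, while control epithelial cells had 5429, 2544 and 4466 CPM in the same bins. Endothelial cells of 500 to 2000 UMIs had 3196 CPM in the mutant and 5163 CPM in the control library, and those of 10000 to 20000 UMIs had 3833 and 4036 CPM. The mesenchymal gap was smallest at 5000 to 10000 UMIs, at 712 and 1199 CPM, and large at 10000 to 20000 UMIs, at 622 and 4869.7 CPM. In 2 shallow clusters members stood among the 10 leading genes, although members were left out of the clustering: H2ac8 in the Egfl7 endothelial cluster, and H1f5 and Hist1h2ap in an Epcam epithelial cluster of 27 mutant and 295 control cells.

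**Figure D5:**
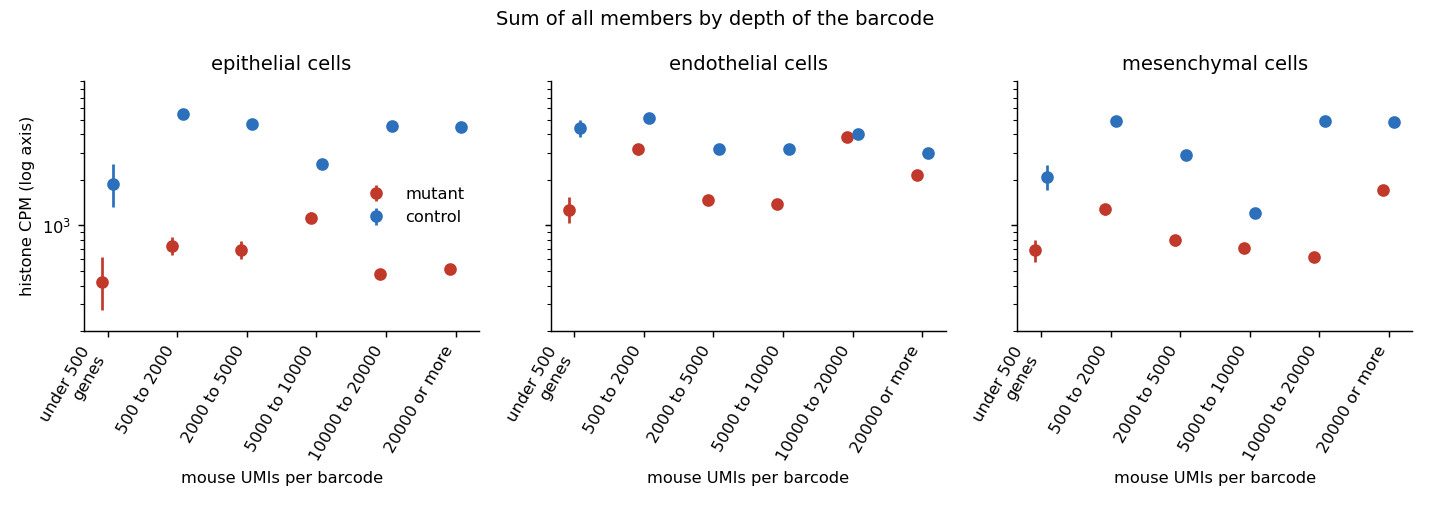
Sum of all members in CPM by mouse UMIs per barcode, with barcodes under 500 genes at the left of each panel, mutant left of control, on a log axis with Poisson intervals. The mutant points lie under the control points in all bins shown, and in endothelial cells the bin of 10000 to 20000 UMIs is the closest, at 3833 against 4036 CPM.

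Markers of other cell types summed to less than the class's own and differed between the libraries. In epithelial cells the 10 epithelial markers summed to 2839.6 CPM in the mutant and 4962 CPM in the control library, the 6 mesothelial markers to 566 and 680 CPM, the 12 mesenchymal markers summed to 429 CPM in the mutant and 226 CPM in the control library, the 10 immune markers to 168 and 55.9 CPM, the 10 endothelial markers to 106 and 125 CPM, and the 7 erythroid markers to 539.8 and 618 CPM. In the 48 mutant and 560 control epithelial cells with Mcm and Top2a UMIs, the epithelial markers summed to 4199 and 4879 CPM, the endothelial markers to 276 and 123 CPM, the mesenchymal markers to 457 and 216 CPM, and the erythroid markers to 60.7 and 589 CPM. In mesenchymal cells with both, the mesenchymal markers summed to 11492 and 7161 CPM and the erythroid markers to 97.4 and 529.5 CPM. In endothelial cells with Mcm and Top2a UMIs, the 10 endothelial markers summed to 8833 and 8148 CPM, with the 7 erythroid markers at 642 and 1742 CPM and the mesenchymal markers at 160.2 and 299 CPM. The part of these levels in the histone values was not tested.

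Rat cells carried their own histone features, 33 of them by the same form of name. Their sum was 2388 CPM of rat UMIs (2284 to 2495) in 79 mutant rat cells and 1703 CPM (1679 to 1727) in 725 control rat cells, with H1 at 1852 and 1067 CPM making up most of it. Rat H1f5 had 423 and 324 CPM, rat H1f4 1053 and 503 CPM, and rat Top2a 637 and 339 CPM, mutant before control. The rat H2A sum, 209.9 CPM in the mutant and 194 CPM in the control library, differed little, and rat H2B was lower in the mutant library, at 291 CPM against 426 CPM in the control library. The rat cells were not split by type, so that cell type and library cannot be told apart in them.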

How the data were processed

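Lung cells of 1 mutant and 1 control chimeric library were analysed from the deposited count matrices, which hold whole-number counts of UMIs per gene and barcode on a joint mouse and rat gene set. The authors made them with Cell Ranger 7.0.1 (mutant) and 6.0.1 (control), per the file headers; mm10, rn6 and Seurat 4.3 are named in the submitters' processing notes, and the setting for intronic reads is not given in the sources used here. Members and gene lists were chosen with earlier results of these data known.

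Barcodes with at least 500 genes and at most 20% mitochondrial UMIs were kept, giving 8990 mutant and 9021 control barcodes, of which 8854 and 7414 were mouse (at least 90% mouse UMIs), 79 and 725 rat, and 57 and 882 mixed. Doublets with a Scrublet score of 0.2 or more were removed, 356 mutant (4.02%) and 154 control (2.08%), since the automatic threshold called 373 and 2. Median depth of kept barcodes was 10356.5 UMIs in the mutant and 8416 in the control library. Cells were clustered with Scanpy 1.11.5 (Leiden 0.10.2, resolution 1, 30 components, 15 neighbours, 1922 variable genes, without members and cycle-correlated genes). A cluster took the class of most of its marker-gated cells, and was left unnamed where another class had more markers among its top 10 genes. This naming rule replaced a mean-fold rule after clusters had been seen, and the stem-loop search was tightened and the window for shared sequence set to 90 bases after a first look.

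UMIs were summed per class and library and given as CPM. Members were named in the text if they reached 100 CPM in epithelial, endothelial or mesenchymal cells, and a gene was measured at 10 CPM in either library. Hist1h2an and H2ac20 were named after their values were seen. Poisson and Clopper-Pearson intervals at 95% cover counting error only. No test between libraries was run, as each group is 1 library. The computation was checked on simulated counts. Sequences are from GENCODE transcripts of mm10. Alternatives changed the denominator, pseudocount, filters, class assignment, thinning and detection limit.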

Additional observations from a re-analysis of the deposited data

Results flagged for a closer look

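Several log2 differences, mutant over control, had opposite signs in endothelial cells and in another class; with 1 library per group the difference between classes was not tested. All members but Hist1h2ap differed by 0.04 in endothelial cells, -2.24 in epithelial and -1.75 in mesenchymal cells. The H1 family differed by 0.23 in endothelial, -1.90 in epithelial and -1.48 in mesenchymal cells, and H2B by 0.26, -2.22 and -1.59 in the same order. H3 differed by 0.14, -2.34 and -2.09, and H4 by 0.56, -1.16 and -1.10. The endothelial H4 value rested on H4c4 and was -0.62 without it. The median of the measured H4 members was -0.64, beside -0.09 over all measured genes. Of single genes, H1f4 differed by 0.81 in endothelial, -0.65 in epithelial and -0.45 in mesenchymal cells, H4c4 by 1.44 in endothelial and -0.25 in mesenchymal cells, and H1f2 by 0.72 in endothelial and -0.37 in epithelial cells. Rat histone features, outside the mouse comparison, had 2388 CPM of rat UMIs in rat cells of the mutant library.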

How the results depend on the processing

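No paired analysis was possible because each group is 1 library. The epithelial log2 difference of the sum (-3.04) was -2.38 per ribosomal protein UMI, -2.96 per UMI of genes with at most 10 kb of intron, -2.24 without Hist1h2ap, -3.07 by marker gate at 200 genes, -3.11 by marker gate, -2.99 with doublets kept and -3.19 with the unnamed Ager cluster. The endothelial one (-0.48) was 0.26 per ribosomal protein UMI, -0.23 per short-intron UMI, 0.04 without Hist1h2ap, -0.45 at 1000 genes or more, -0.46 at 10% mitochondrial UMIs or less and -0.42 in cells of 5000 UMIs or more. The mesenchymal one (-2.24) was -1.73, -1.99 and -1.75 under the first 3 of these, and the immune one (-1.23) -0.78, -1.03 and -0.79, and -1.08 by either marker gate. Members lower by 1 or more, each with the share of all measured genes under the same setting, numbered 12 of 15 (16.9%) in epithelial and 10 of 15 (7.95%) in mesenchymal cells with a limit of 30 CPM. In endothelial cells they were 2 of 33 (0.464%) per ribosomal protein UMI, 2 of 34 (1.63%) per short-intron UMI and 10 of 34 (8.63%) with 1 CPM added, and in immune cells 3 of 25 (1.47%) per ribosomal protein UMI and 11 of 25 (9.88%) with 1 CPM added. In cells with Mcm and Top2a UMIs, at least 2 UMIs of each, thinning to 2000 UMIs, ribosomal, short-intron and no Hist1h2ap gave -1.52, -0.54, -1.04, -1.70 and -1.12 in epithelial, 0.94, 0.46, 1.41, 0.87 and 1.19 in endothelial, and -0.41, -0.57, -0.59, -0.77 and -0.52 in mesenchymal cells. The difference in the share of cells with Hist1h2ap, in percentage points, was -50.9, -39.4 and -27.4 in epithelial, endothelial and mesenchymal cells, -41.9, -33.3 and -23.7 at 1000 UMIs, and -68.5, -44.1 and -46.4 unthinned. The low-depth difference (-1.18) was -0.83 at 20% mitochondrial UMIs or less and -0.96 without barcodes under 200 genes. Of 280 alternatives for single members 158 moved the value by less than its counting interval, 107 by more, and 15 turned the sign. Ribosomal scaling moved the median of all genes to 0.34 in the epithelium, 0.48 in the endothelium and 0.31 in the mesenchyme, and with Mcm and Top2a to 0.73 and 0.52 in epithelial and endothelial cells, so a turned sign under it need not exceed the typical gene. Per ribosomal protein UMI the turned signs were those of H1f2 in epithelial (0.22) and mesenchymal cells (0.45), H1f5 in endothelial cells (0.46), H1f4 (0.05) and H4c4 (0.22) in mesenchymal cells, and with Mcm and Top2a H1f4 (0.56) and H2bc4 (0.60) in epithelial and H2ac8 (0.04) and H2bc4 (0.60) in endothelial cells. Per short-intron UMI they were H1f2 in mesenchymal cells (0.21) and H2bc4 in endothelial cells with both (0.13). H4c4 was -0.07 in epithelial cells with the Ager cluster, and H2bc4 was 0.03 in epithelial cells with 2 UMIs of each, and -0.02 and -0.03 in endothelial cells by marker gate at 200 genes and with doublets kept. Alternatives for cells with Mcm and Top2a by denominator and without Hist1h2ap, the Ager cluster, the unthinned share and the low-depth limits were chosen after seeing the data, and the cause of these shifts was not tested.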
